A study of Homo sapiens with 6 samples.

Results

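The protocadherins and the CDH genes belong to the cadherin superfamily of calcium-dependent adhesion proteins. They were followed in LA1-55n, a human neuroblastoma cell line, through every gene whose symbol starts with PCDH, or with CDH and a digit. The 5 pseudogene and antisense symbols were left out. This gave 31 of the 14779 genes measured: 16 clustered protocadherins of the beta group, 13 non-clustered protocadherins and 2 CDH genes, CDH23 and CDH26. Probe sets with no symbol or with several symbols were set aside before this search. Among the probe sets kept, none carried the symbol of an alpha or gamma protocadherin (0 of each). The same held for the 18 classical type I and type II cadherins listed, so E-cadherin, N-cadherin and their relatives were not analysed here. Whether the probe sets set aside read any of these genes was not tested. The label of classical cadherins is therefore not met by the genes kept, and the comparison is between clustered beta and non-clustered protocadherins.

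The series holds 6 arrays of the Affymetrix Human Gene 2.0 ST design. Of these, 3 held RNA of LA1-55n cells with the construct teton-shGFP, a hairpin against green fluorescent protein that serves as the control. The other 3 held RNA of cells with teton-shGLDC99, a hairpin against glycine decarboxylase (GLDC). Both groups carried a hairpin and both received 0.5 µg/ml doxycycline for 7 days, so neither is untreated. Each group stands for a single hairpin sequence, and whether the cells were clones or pools is not given in the sources used here. The series' design text calls the 3 samples of a group, lettered a, b and c, independent, without saying whether they were separate cultures. The p-values therefore measure the spread between these samples, which may be technical.

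Cadherins bind the same or a related cadherin on a neighbouring cell through repeated extracellular domains. Clustered protocadherins lie side by side on chromosome 5 in alpha, beta and gamma groups. In neurons each cell switches on its own selection of their promoters, and the resulting surface code lets neurites tell self from other. Each beta gene is a single coding exon with its own promoter, which the insulator protein CTCF and cohesin can bring to distant enhancers. Non-clustered protocadherins are scattered over the genome. The delta-1 and delta-2 subgroups differ in their cytoplasmic tails and act in axon growth, cell sorting and synapse formation.

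The promoters of the beta group share a short conserved element, known for its CGCT core and for binding CTCF, and these sequences are shown because the beta genes are where most changes were found. RefSeq promoter windows on GRCh38.p14, from 250 bases before to 50 bases after the start site, were held for 14 of the 16 beta members; PCDHB6 and PCDHB11 had none. The word GGTGGCGCT was the only word of 9 bases shared by 13 of the 14 windows, the highest count for that length. It was searched on both strands, and it occurred in 0.501% of all 35116 promoter windows. The 13 copies were all on the strand of the gene and began 2 to 84 bases before the start site. Each is shown with 16 bases on either side, 5′ to 3′ on the plus strand, with the shared word in capitals.
PCDHB2, chr5:141094539-141094579: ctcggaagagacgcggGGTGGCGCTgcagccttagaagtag
PCDHB3, chr5:141100388-141100428: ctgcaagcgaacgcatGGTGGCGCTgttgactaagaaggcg
PCDHB4, chr5:141121718-141121758: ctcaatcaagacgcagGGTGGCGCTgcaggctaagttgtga
PCDHB5, chr5:141135174-141135214: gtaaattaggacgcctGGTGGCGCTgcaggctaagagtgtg
PCDHB7, chr5:141172561-141172601: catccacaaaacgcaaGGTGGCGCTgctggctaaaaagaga
PCDHB8, chr5:141177772-141177812: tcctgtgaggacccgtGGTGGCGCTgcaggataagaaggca
PCDHB16, chr5:141182305-141182345: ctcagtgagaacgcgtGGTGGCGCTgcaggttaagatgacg
PCDHB9, chr5:141187069-141187109: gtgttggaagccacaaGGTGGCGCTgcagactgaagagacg
PCDHB10, chr5:141192294-141192334: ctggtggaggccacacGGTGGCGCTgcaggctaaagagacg
PCDHB12, chr5:141208638-141208678: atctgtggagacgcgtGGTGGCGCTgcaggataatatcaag
PCDHB13, chr5:141213860-141213900: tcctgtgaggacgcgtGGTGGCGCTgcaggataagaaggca
PCDHB14, chr5:141223258-141223298: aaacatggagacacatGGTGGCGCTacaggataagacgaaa
PCDHB15, chr5:141245309-141245349: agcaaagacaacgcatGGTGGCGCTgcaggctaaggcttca

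PCDHB8 and PCDHB13 shared 40 of these 41 bases, the most of any pair, and the neighbours PCDHB9 and PCDHB10 shared 35. The least alike pairs shared 23. PCDHB1, the first gene of the group, was the member without this exact word. Its upstream bases do include ggtggtgct, which has a t in place of the first c of the word. Whether this acts as the same element was not tested. The word occurred in none of the windows of 11 non-clustered members and 2 CDH members (0 of 11 and 0 of 2 genes), and in none of 13 alpha and 20 gamma genes with windows (0 of each). The word was taken from the beta windows themselves, so its absence elsewhere does not show that those genes lack a related element. A match describes letters only. The 250 bases upstream of the start site are given for PCDHB4, a gene that rose, for PCDHB2, the only beta gene that fell, and for PCDHB1, which lacked the exact word.
PCDHB4, chr5:141121568-141121817: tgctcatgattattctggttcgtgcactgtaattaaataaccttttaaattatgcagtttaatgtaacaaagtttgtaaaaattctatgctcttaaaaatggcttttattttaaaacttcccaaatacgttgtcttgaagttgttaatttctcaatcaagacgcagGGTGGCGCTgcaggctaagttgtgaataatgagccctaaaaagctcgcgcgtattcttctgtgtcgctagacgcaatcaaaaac
PCDHB2, chr5:141094365-141094614: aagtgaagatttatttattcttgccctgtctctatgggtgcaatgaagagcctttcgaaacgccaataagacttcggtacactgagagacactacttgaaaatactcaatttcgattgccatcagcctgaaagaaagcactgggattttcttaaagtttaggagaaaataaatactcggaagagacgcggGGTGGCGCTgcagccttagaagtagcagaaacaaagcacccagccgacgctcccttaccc
PCDHB1, chr5:141051124-141051373: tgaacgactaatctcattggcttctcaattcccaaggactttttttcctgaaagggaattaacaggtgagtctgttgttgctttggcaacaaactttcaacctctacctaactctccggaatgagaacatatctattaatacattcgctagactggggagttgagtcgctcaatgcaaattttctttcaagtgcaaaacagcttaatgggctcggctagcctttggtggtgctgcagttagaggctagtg

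The arrays were alike in their overall signal. Array medians lay between 4.28 and 4.33 on the deposited log2 scale, and arrays correlated at 0.993 to 0.994 within groups and 0.988 to 0.990 between groups over 31135 probe sets. GLDC, the gene that the hairpin targets, was at 7.85, 7.90 and 7.81 in shGFP cells and at 5.98, 5.65 and 5.93 in shGLDC99 cells, lower in all 3 (4.01-fold; limma adjusted p = 0.00101). Of 12 defining neuroblastoma markers 9 were measured, with array means of 6.60 to 6.73 in shGFP and 6.53 to 6.69 in shGLDC99 cells. However, 3 of the 9 changed, beside 8.52% of all genes. ISL1 fell by 1.09 (limma adjusted p = 0.00412), GATA3 fell by 0.48 (adjusted p = 0.0161) and CHGB rose by 0.41 (adjusted p = 0.0145). Of 50 markers of endothelium, epithelium, fibroblasts, glia and leukocytes 30 were measured and 1 changed, the fibroblast proteoglycan LUM, which rose by 0.52 (limma adjusted p = 0.0125). The mean over the 3 measured markers of fibroblasts and substrate-adherent cells was 3.57 to 3.64 in shGFP and 3.79 to 3.89 in shGLDC99 arrays. The part of such cells in the results below was not tested.

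Each difference is the shGLDC99 mean less the shGFP mean, in log2 units, with the moderated standard error (SE) of limma fitted across all 14779 genes. A gene rose, fell or changed where its Benjamini-Hochberg adjusted p over all genes was under 0.05. Over all genes 8.52% changed, 3.72% rose and 4.80% fell, and the median difference was -0.01. Among the 31 members 6 rose and 3 fell, which left 22 short of the threshold. All 6 rises were in the beta group. The falls were those of PCDHB2 and of the non-clustered PCDH8 and PCDH9.

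In the beta group 7 of 16 genes changed (43.8%, beside 8.52% of all genes). In shGLDC99 cells 6 of these rose and 1 fell, beside 3.72% and 4.80% of all genes. The median difference over the 16 was 0.36, with a range from -0.67 to 0.91. The groups did not overlap for 9 of the 16 (56.2%, against 30.8% of all genes). In every shGLDC99 array 8 were higher and 1 lower, beside 14.5% and 16.3% of all genes. Without any 1 of the 6 arrays, 2 or 3 of the rises remained past the threshold, PCDHB4 and PCDHB9 among them each time. Beta genes resemble each other in sequence, and whether a probe set also reads a neighbouring member was not tested.

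**Figure D1:**
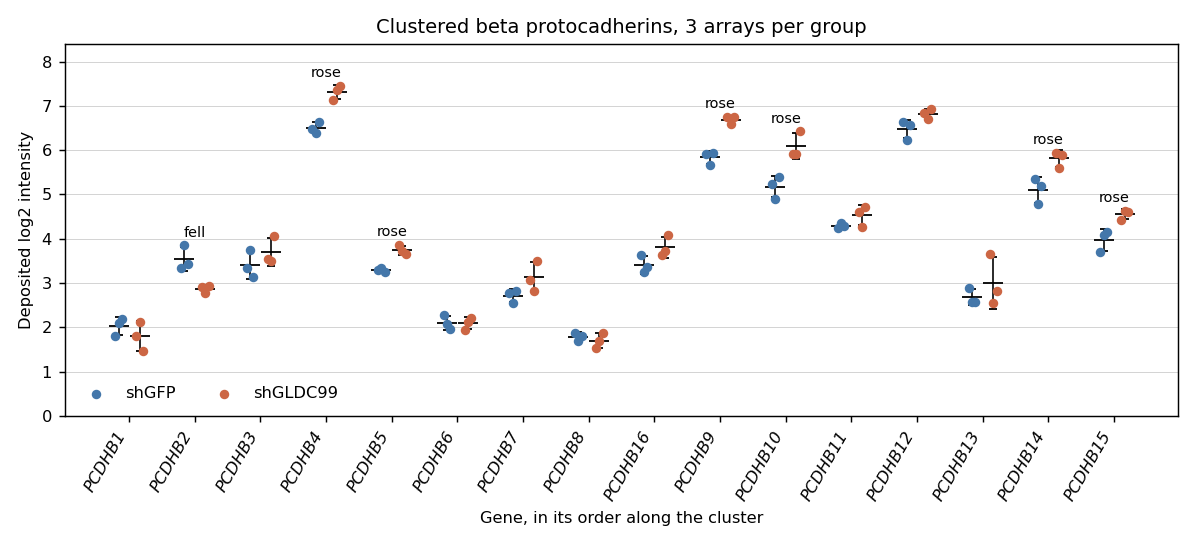
Deposited log2 intensity (vertical axis) of the 16 beta protocadherins, in their order along the cluster (horizontal axis), in 3 shGFP arrays (blue) and 3 shGLDC99 arrays (orange); bars are the mean ± SD (n = 3) and genes past the threshold carry the word rose or fell. For PCDHB4 the shGLDC99 arrays lie between 7.13 and 7.45, above the highest shGFP array at 6.63.

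The largest rise was that of PCDHB10, at 5.24, 4.91 and 5.38 in shGFP arrays a, b and c and at 5.92, 5.92 and 6.42 in shGLDC99 arrays. All 3 shGLDC99 arrays were higher than any shGFP array, with array c the highest of each group. PCDHB10 rose by 0.91 ± 0.179 (SE), or 1.88-fold (adjusted p = 0.0287). Its upstream neighbour PCDHB9 was at 5.92, 5.68 and 5.93 and then at 6.75, 6.59 and 6.74. The groups were separated by more than the spread within either, and PCDHB9 rose by 0.85 ± 0.0938 (SE), or 1.81-fold (adjusted p = 0.00622), the smallest adjusted p of the beta genes. The rise of PCDHB10 was lost without any 1 of the 6 arrays (adjusted p up to 0.0795), while that of PCDHB9 was kept (adjusted p up to 0.0332 over all alternatives).

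PCDHB4 was at 6.49, 6.38 and 6.63 in shGFP arrays and at 7.13, 7.36 and 7.45 in shGLDC99 arrays. The groups did not overlap, and PCDHB4 rose by 0.81 ± 0.109 (SE), or 1.76-fold (adjusted p = 0.00964). PCDHB14 was at 5.34, 4.79 and 5.19 in shGFP and at 5.94, 5.60 and 5.90 in shGLDC99 arrays. Array b was the lowest of both groups, and PCDHB14 rose by 0.71 ± 0.163 (SE), or 1.63-fold (adjusted p = 0.0458). This rise lay close to the threshold: it was lost when each array was centred on its median, when all probe sets were tested together, and without any 1 of the 6 arrays (adjusted p up to 0.134).

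PCDHB15, the last gene of the group, was at 3.69, 4.09 and 4.15 in shGFP and at 4.43, 4.64 and 4.60 in shGLDC99 arrays. It rose by 0.57 ± 0.134 (SE), or 1.49-fold (adjusted p = 0.0484), and this call was lost without any 1 of the 6 arrays and when all probe sets were tested together (adjusted p up to 0.135). PCDHB5 was at 3.29, 3.34 and 3.26 and then at 3.85, 3.72 and 3.66, the tightest shGFP values of the group. It rose by 0.45 ± 0.0741 (SE), or 1.36-fold (adjusted p = 0.0178), a call kept without shGLDC99 c and lost without any of the other 5 arrays. PCDHB5 and PCDHB15 lie below the median gene level of 5.09 in both groups. No measure of background was at hand, and the size of their rises is uncertain.

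PCDHB2 went the other way. It was at 3.34, 3.85 and 3.44 in shGFP arrays and at 2.91, 2.76 and 2.94 in shGLDC99 arrays, lower in all 3. PCDHB2 fell by 0.67 ± 0.139 (SE), or 1.59-fold lower (adjusted p = 0.0335). Its levels too were below the median gene level, and the call was lost without shGFP c or any 1 shGLDC99 array (adjusted p up to 0.102). Its promoter window held the same word as those of the genes that rose, a word found in 13 of the 14 beta windows. Windows of beta genes not past the threshold held it too.

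The other 9 beta genes were not past the threshold. PCDHB12 was at 6.63, 6.24 and 6.58 in shGFP and at 6.84, 6.70 and 6.92 in shGLDC99 arrays. Every shGLDC99 array was higher, and the difference was 0.34 ± 0.121 (SE; adjusted p = 0.145), past the threshold only when limma's prior variance followed intensity (adjusted p = 0.0392; up to 0.313 over the other alternatives). PCDHB7 was also higher in all 3 shGLDC99 arrays, with a difference of 0.42 (adjusted p = 0.202). PCDHB16 differed by 0.39 (adjusted p = 0.173), PCDHB3 by 0.29 (adjusted p = 0.449) and PCDHB11 by 0.23 (adjusted p = 0.294), each with overlapping groups.

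PCDHB13 differed by 0.32 (adjusted p = 0.550), and 1 array set this value. It stood at 2.90, 2.58 and 2.58 in shGFP and at 3.65, 2.54 and 2.81 in shGLDC99 arrays, and without shGLDC99 a the difference was -0.01. PCDHB8, whose window differs from that of PCDHB13 at 1 of 41 bases, outside the shared word, differed by -0.09 (adjusted p = 0.654). PCDHB1, whose window lacks the exact word, differed by -0.23 (adjusted p = 0.505) and PCDHB6 by -0.01, with a 95% interval from -0.27 to 0.25. All 4 genes lay below the median gene level in both groups, and their groups overlapped.

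Brightness and the signed difference moved together within the beta group. The 5 genes at or above the median gene level in their higher group (PCDHB4, PCDHB9, PCDHB10, PCDHB12 and PCDHB14) had a median difference of 0.81, and the 11 below it 0.29. Across the 16 genes, mean level and signed difference had a Pearson r of 0.71 and a Spearman rho of 0.72. The sign matters here, since the dim PCDHB2 differed by -0.67. This describes genes that share the same 6 arrays. A probe set's brightness also depends on its probes, so these levels do not rank the genes by transcript number. The median over the 16 genes in each array was 3.49, 3.80 and 3.40 in shGFP and 3.75, 3.72 and 4.07 in shGLDC99 cells. On this summary the groups overlapped, since shGFP b was above shGLDC99 a and b.

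**Figure D2:**
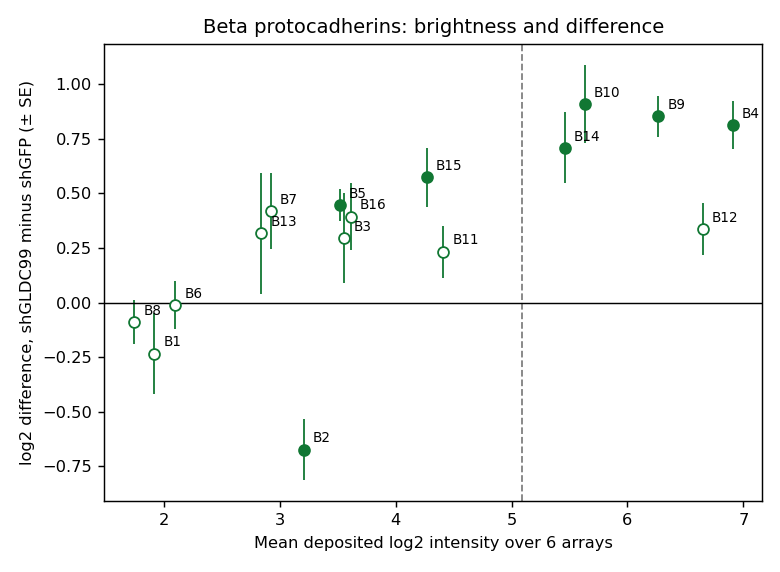
Mean deposited log2 intensity over the 6 arrays (horizontal axis) against the log2 difference, shGLDC99 minus shGFP, with its SE (vertical axis), for the 16 beta protocadherins; filled points changed, open points were not past the threshold, and the dashed line is the median gene level of 5.09. The 5 genes at or right of the line lie between 0.34 and 0.91, and PCDHB2 is the filled point below 0.

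The changed genes were spread along the cluster. In chromosomal order PCDHB4 and PCDHB5 were adjacent, as were PCDHB9 and PCDHB10, and PCDHB14 and PCDHB15 had only pseudogenes between them. Genes next to those that rose included PCDHB6 and PCDHB16, which were not past the threshold. The pseudogenes PCDHB18P and PCDHB19P, which lie between PCDHB14 and PCDHB15, differed by 0.35 (adjusted p = 0.183) and 0.29 (adjusted p = 0.407). PCDHB17P, next to PCDHB6, differed by 0.12 (adjusted p = 0.754).

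Among the 13 non-clustered protocadherins 2 fell and 0 rose, and at an unadjusted p under 0.05 a further pair, PCDH17 and PCDH20, was also lower (limma), which makes 4 of 13 (30.8%) beside 24.4% of all genes. The share changed was 15.4%, beside 8.52% of all genes. Over all genes 4.80% fell and 3.72% rose. The median difference of the 13 was -0.11. The groups did not overlap for 4 of the 13 (30.8%, the same as the 30.8% over all genes in either direction). In each of the 4 shGLDC99 was lower, as it was for 16.3% of all genes. In 0 of the 13 it was higher, beside 14.5% of all genes. Whether this class differs from the beta group as a class was not tested. Genes are not replicates, so each class is described by its counts and median.

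**Figure D3:**
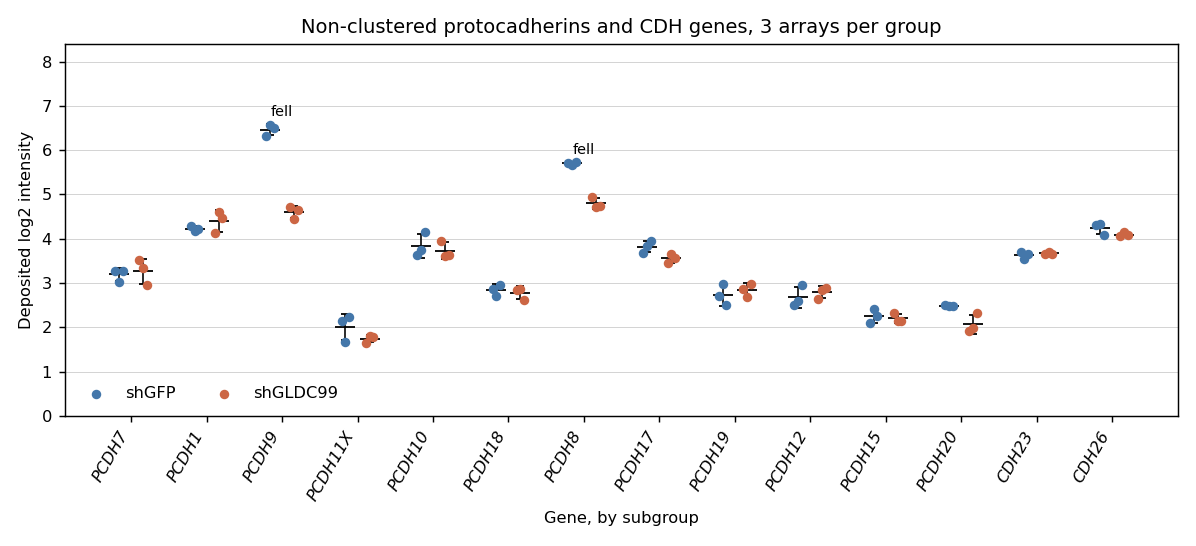
Deposited log2 intensity (vertical axis) of 12 non-clustered protocadherins and of CDH23 and CDH26, by subgroup (horizontal axis), in 3 shGFP arrays (blue) and 3 shGLDC99 arrays (orange); bars are the mean ± SD (n = 3), genes past the threshold carry the word fell, and PCDH11Y is not drawn. PCDH9 drops from 6.33 to 6.57 in shGFP arrays to 4.45 to 4.71 in shGLDC99 arrays.

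PCDH9, a delta-1 protocadherin of the developing nervous system, showed the largest difference of the family. It was at 6.33, 6.57 and 6.51 in shGFP arrays and at 4.71, 4.45 and 4.64 in shGLDC99 arrays. The gap between the groups was far wider than the spread within them, and PCDH9 was 3.65-fold lower (difference -1.87, 95% interval -2.10 to -1.63; adjusted p = 0.00104). It fell under each of the alternatives (adjusted p up to 0.0273). On its 6 values alone an exact two-sided permutation test gave p = 0.1, the smallest that 3 arrays against 3 allow. Of the transcripts antisense to PCDH9, PCDH9-AS2 differed by -0.25 (adjusted p = 0.185) and PCDH9-AS3 by -0.03 (adjusted p = 0.848), both from dim levels of 1.89 and 1.53 in shGFP cells.

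The other delta-1 members were not past the threshold. PCDH1, an adhesion protein also found in airway epithelium, was at 4.29, 4.17 and 4.23 in shGFP and at 4.13, 4.60 and 4.46 in shGLDC99 arrays, a difference of 0.17 (adjusted p = 0.485) with overlapping groups. PCDH7 differed by 0.07 (adjusted p = 0.822), with a 95% interval from -0.29 to 0.44. PCDH11X and its near-identical copy on the Y chromosome, PCDH11Y, differed by -0.27 (adjusted p = 0.340) and -0.24 (adjusted p = 0.335). Probes may not separate these copies, so both values are uncertain.

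PCDH8, a delta-2 protocadherin known at synapses as arcadlin, was the other member that fell. It was at 5.72, 5.66 and 5.72 in shGFP arrays and at 4.94, 4.71 and 4.74 in shGLDC99 arrays. The shGFP arrays lay within 0.1 of each other, and every shGLDC99 array was lower. PCDH8 fell by 0.90 ± 0.0808 (SE), or 1.87-fold lower (adjusted p = 0.00378), and fell under each of the alternatives (adjusted p up to 0.0350). PCDH9 and PCDH8 both dropped from above to below the median gene level. Their shGLDC99 levels of 4.60 and 4.80 may be near background, which was not measured here, and this limits how well the falls are sized.

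PCDH17, which acts in presynaptic assembly, was lower in all 3 shGLDC99 arrays, at 3.46, 3.66 and 3.57 against 3.68, 3.84 and 3.95, but its difference of -0.26 was not past the threshold (adjusted p = 0.140). PCDH10, a delta-2 protocadherin of axon growth, differed by -0.11 (adjusted p = 0.731) and PCDH18 by -0.07 (adjusted p = 0.741). PCDH19, the gene of a familial epilepsy, differed by 0.12 (adjusted p = 0.666). Their groups overlapped.

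Of the remaining non-clustered genes PCDH20 came nearest to the threshold. It was at 2.51, 2.47 and 2.48 in shGFP and at 1.92, 1.98 and 2.32 in shGLDC99 arrays, lower in all 3, with a difference of -0.42 ± 0.111 (SE; adjusted p = 0.0686). Without shGLDC99 c, the highest of its group, PCDH20 was past the threshold (-0.54, adjusted p = 0.0293); these are dim values, and it was not past it under any other alternative (adjusted p up to 0.175). PCDH12, a protocadherin of endothelium, differed by 0.11 (adjusted p = 0.671), and PCDH15, a tip link protein of hair cells, by -0.05 (adjusted p = 0.806).

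Neither CDH gene changed. CDH23, the tip link partner of PCDH15, was at 3.69, 3.54 and 3.65 in shGFP and at 3.65, 3.71 and 3.67 in shGLDC99 arrays, a difference of 0.04 with a 95% interval from -0.12 to 0.20 (adjusted p = 0.743). CDH26, a cadherin found in epithelium, differed by -0.15, with a 95% interval from -0.35 to 0.05 (adjusted p = 0.336). Of the 2 genes 0 were past an unadjusted p of 0.05 as well (limma).

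**Figure D4:**
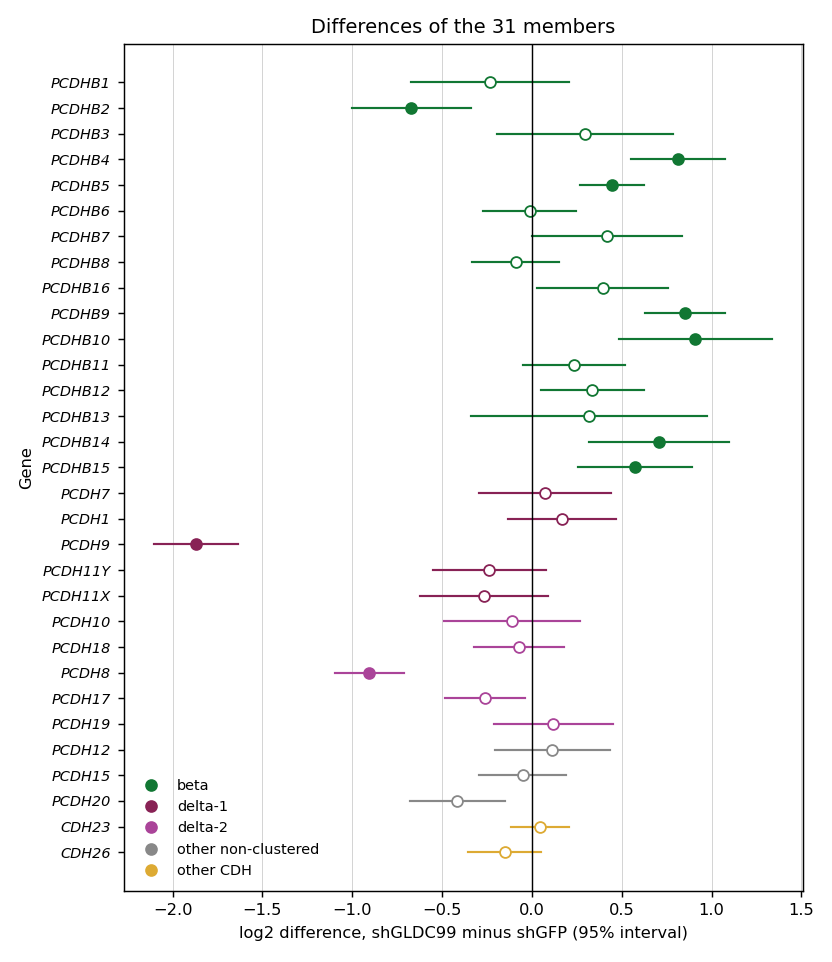
The log2 difference, shGLDC99 minus shGFP (horizontal axis), with its 95% interval from limma for each of the 31 members (vertical axis), coloured by subgroup; filled points changed and open points were not past the threshold. The beta group runs from -0.67 to 0.91 and the non-clustered genes from -1.87 to 0.17.

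The proteins that work with cadherins were read from lists of related genes. No list was tested as a set. Of 14 catenins and other partners of the cadherin tail 4 were measured, without CTNNB1 or CTNND1. Of the 4, 1 changed, beside 8.52% of all genes. JUP, or plakoglobin, which links cadherins and desmosomes to the cytoskeleton, rose by 0.74 ± 0.0809 (SE; adjusted p = 0.00622). PKP4, a relative of p120 catenin, differed by -0.23 (adjusted p = 0.0930). Of 24 other members of the superfamily 20 were measured, with a median difference of 0.03. Of these 2 fell and 0 rose, beside 4.80% and 3.72% of all genes. DSG2, a desmosomal cadherin, fell by 0.87 (adjusted p = 0.00585) and FAT3, a giant cadherin of neuronal shape, fell by 0.69 (adjusted p = 0.00660).

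Of 17 cytoplasmic partners of protocadherins, among them the WAVE complex that drives actin branching, 9 were measured. Of these 1 rose and 1 fell, beside 8.52% of all genes that changed. RET, the receptor kinase reported to bind clustered protocadherins, rose by 0.65 (adjusted p = 0.0346), and DAB1, the adaptor of reelin signalling, fell by 0.45 (adjusted p = 0.0277). Of 18 genes of cadherin cleavage 14 were measured and 0 changed, beside the same 8.52%. The smallest adjusted p was that of PSENEN, a gamma-secretase subunit, at 0.0503 with a difference of 0.30, followed by the presenilin PSEN2 (0.47, adjusted p = 0.0557). All 16 listed repressors of E-cadherin and regulators of epithelial state were measured. Only TCF3 fell, by 0.34 (adjusted p = 0.0332), and 0 rose, beside 4.80% and 3.72% of all genes.

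The list of chromatin regulators of the clustered protocadherin locus, written from general knowledge, had 22 of 26 genes measured. It includes factors that act widely in the genome. Of these 7 fell and 0 rose, beside 4.80% of all genes that fell, and the median difference was -0.15. The listed genes were bright, with array means of 7.97 to 8.01 in shGFP and 7.72 to 7.74 in shGLDC99 cells. The median gene level was 5.09. The 4.80% covers genes of every brightness, and the share that fell among genes as bright as these was not taken. CTCF, known to bind clustered protocadherin promoters, fell by 0.42 (adjusted p = 0.0163), and the cohesin subunit RAD21 fell by 0.48 (adjusted p = 0.0145). The DNA methyltransferases DNMT1 and DNMT3B fell by 0.46 (adjusted p = 0.00885) and 0.51 (adjusted p = 0.0200). The histone methyltransferase EHMT2 fell by 0.47 (adjusted p = 0.0103) and the corepressor TRIM28 fell by 0.47 (adjusted p = 0.0135). REST, a repressor of neuronal genes with sites in the locus, fell by 1.39 (adjusted p = 0.00211). These falls and the rises in the beta group come from the same arrays, and no link between them was tested.

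The dependence on the settings differed between the changed members. PCDH8, PCDH9, PCDHB4 and PCDHB9 were past the threshold in all 15 alternative fits. PCDHB10 was past it in 9 of 15 and PCDHB14 in 7 of 15. PCDHB2 was past it in 9 of 14, PCDHB5 in 8 of 14 and PCDHB15 in 6 of 14; these 3 were left out with the dimmest 40% of genes. None of the 9 changed its direction in any fit.

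**Figure D5:**
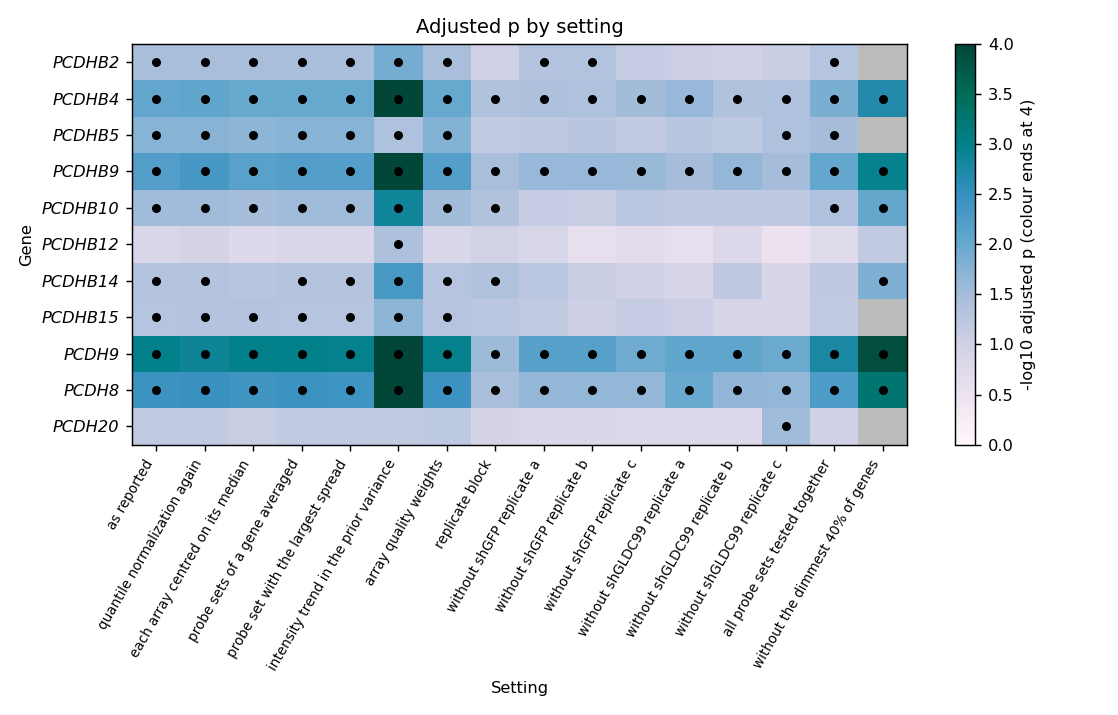
Adjusted p (colour, as -log10, ending at 4) of the 11 members past the threshold in at least 1 setting (vertical axis), as reported and under the 15 alternative fits (horizontal axis); black dots mark adjusted p under 0.05 and grey cells genes left out by that setting. PCDHB4, PCDHB9, PCDH9 and PCDH8 carry a dot in every setting.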

How the data were processed

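Gene expression was measured on 6 arrays, 3 per group, grouped by the sample titles. The authors deposited a value per probe set and array, read here as log2 intensity; the log base is not stated and was inferred. The top value is 13.28, whereas natural logs of a scanner's range end at 11.09, and all folds rest on log2. The submitters' processing notes name Partek, without a version. How background was removed and how arrays were normalized is not stated there. Of 31135 probe sets 15098 had 1 symbol in GEO's platform annotation, which can be old, and these covered 14779 genes. The other 16037 had no symbol or more than 1. Where a gene had several probe sets the brightest was kept, and each of the 31 members had 1. All 31 matched RefSeq's gene list (GRCh38.p14), used for names and gene order; promoter windows came from RefSeq on the same build.

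Tests used limma 3.58.1 (lmFit, eBayes) in R 4.3.3, adjusted over all genes, without a filter on dim probe sets; plots used matplotlib 3.10.9, pandas 2.3.3 and numpy 2.4.6. The fit was tested on data simulated with normal noise and limma's own prior variance. This checks the code, and not how well the model suits these arrays. The members, gene lists and tests were chosen with earlier results of these data known. The rule for named genes took all changed members, the largest differences and brightest genes of each subgroup, and from each list the changed genes or the smallest adjusted p; every other member was named to account for all. Whether the letters a, b and c pair the arrays was checked: deviations of same-lettered arrays from their group means correlated at -0.01 to 0.02, so the letters were not taken as pairs. The number of arrays limits the precision.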

Additional observations from a re-analysis of the deposited data

How the results depend on the processing

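The alternatives changed how many members were called more than in which direction they moved. Over all genes the count of 1259 changed became 2438 when limma's prior variance followed intensity, 2221 once the dimmest 40% of genes were dropped, 275 at an adjusted p under 0.01 and 3599 at an unadjusted p under 0.05. Leaving out 1 array gave 461 to 546 changed genes, 2 to 3 members that rose, 2 to 3 beta genes that changed and medians of the non-clustered differences from -0.21 to -0.049; these fits have fewer samples. Members that rose numbered 2 at an adjusted p under 0.01, and members that fell 5 at an unadjusted p under 0.05. Changed beta genes numbered 4 without the dimmest 40% of genes, which leaves fewer of them, and 2 at an adjusted p under 0.01; changed non-clustered genes numbered 4 at an unadjusted p under 0.05. Without the dimmest 40% of genes the median difference was 0.81 over the 5 beta genes left and -1.39 over the 2 non-clustered genes left, PCDH8 and PCDH9, both already among the falls. With the replicate block, which the check of the letters did not support, 229 of all genes changed, 4 beta genes rose, 0 fell and PCDH8 and PCDH9 fell; PCDHB2 (adjusted p = 0.0960), PCDHB5 (0.0673) and PCDHB15 (0.0578) were not past the threshold under it. Some differences of uncalled members changed sign when 1 array was left out, with ranges of -0.22 to 0.043 for PCDH10, -0.13 to 0.028 for PCDH15, -0.14 to 0.015 for PCDH18, -0.051 to 0.23 for PCDH7, -0.0076 to 0.55 for PCDHB13 and -0.078 to 0.076 for PCDHB6. Where no cause is given, the cause was not tested.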
